A study of Mus musculus with 16 samples.

Results

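Fga, Fgb and Fgg encode the Aα, Bβ and γ chains of fibrinogen and are 3 of the 46078 genes in the table. They were taken by name, and had been selected on measured values of these same libraries: transcripts higher in kidneys given cisplatin than in kidneys given saline, and lower when calorie restriction preceded cisplatin. Those differences are given here as a description, with no test. Cisplatin is a platinum drug that injures the kidney tubule. RNA was measured in whole kidneys of C57BL/6 mice aged 20 weeks, perfused with phosphate buffered saline and taken 72 h after an intraperitoneal injection. BL_vehicle mice had no preconditioning (baseline, BL) and received 0.9% sodium chloride, and BL_cisplatin mice had none and received cisplatin. CR_cisplatin mice were kept on calorie restriction for 4 weeks before cisplatin. HP_cisplatin mice were exposed to low oxygen for 2 h, then 4 h, then 8 h on 3 days in a row, the last exposure at least 1 h before cisplatin. Each group held 4 libraries, numbered 1 to 4 here as names only, and no preconditioned group received saline. The labels do not say that each library is a separate mouse, so p-values measure the spread between these libraries.

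Fibrinogen is a dimer of identical units, each built from 1 copy of each chain. Thrombin trims the Aα and Bβ chains so that the molecules polymerise into fibrin, which factor XIII crosslinks and plasmin dissolves. The liver makes the fibrinogen of plasma and raises all chains together in the acute phase response, through interleukin-6 and the transcription factor STAT3, on promoters that also bind liver factors such as C/EBP. Outside the liver, epithelial cells can transcribe the same genes after injury.

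The genes form a cluster of 42.1 kb on mouse chromosome 3 (GRCm38, GENCODE M21). Fgg lies at chr3:83007724-83015049 on the plus strand, Fga at chr3:83026076-83033627 on the plus strand and Fgb at chr3:83040141-83049863 on the minus strand. The gap from Fgg to Fga is 11026 bases and that from Fga to Fgb is 6513 bases. The promoters are shown because the genes moved together while the chain ratios did not stay the same. They are the bases before the transcription start in RefSeq (GRCm38.p6), where all 3 genes were found, read 5′ to 3′ on the strand of the gene, with matches to 4 searched motifs in capitals. Fga is cut at the start of its first GENCODE exon.
Fga, chr3:83025903-83026075, plus strand: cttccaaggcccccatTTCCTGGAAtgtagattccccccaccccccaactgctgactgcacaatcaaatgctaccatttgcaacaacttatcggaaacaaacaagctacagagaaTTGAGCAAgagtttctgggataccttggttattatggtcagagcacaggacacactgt
Fgb, chr3:83049864-83050113, minus strand: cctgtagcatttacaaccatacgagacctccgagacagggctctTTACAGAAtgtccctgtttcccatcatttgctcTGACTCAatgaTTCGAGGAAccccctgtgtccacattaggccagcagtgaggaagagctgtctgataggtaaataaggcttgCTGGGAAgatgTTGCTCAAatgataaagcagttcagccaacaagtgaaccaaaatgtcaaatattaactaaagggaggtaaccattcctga
Fgg, chr3:83007474-83007723, plus strand: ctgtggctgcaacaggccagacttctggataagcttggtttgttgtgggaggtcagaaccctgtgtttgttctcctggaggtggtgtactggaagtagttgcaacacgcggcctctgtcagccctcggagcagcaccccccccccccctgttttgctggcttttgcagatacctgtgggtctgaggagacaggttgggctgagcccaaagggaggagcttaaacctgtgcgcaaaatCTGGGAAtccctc

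The motifs, searched on both strands in the 250 bases before each start, were CTGGGAA (the acute phase element read by STAT3), TTCNNNGAA (STAT proteins), TTNNGNAA (C/EBP) and TGANTCA (AP-1). No match overlapped another. The Fgb window held all 4 kinds, with CTGGGAA starting 91 bases before the start and the AP-1 motif 173 bases before it. The Fga window held 2 kinds, the STAT motif at 234 and the C/EBP motif at 135 bases before the start. The Fgg window held 1 kind, CTGGGAA at 13 bases before the start. Among 32851 RefSeq windows of the same length, 9.1% held CTGGGAA, 7.02% TTCNNNGAA, 36.8% TTNNGNAA and 6.75% TGANTCA. A match describes the letters and does not show binding.

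Levels are TPM, the reads of a gene divided by its exon length and scaled so that each library sums to 1000000, and so can be set side by side between chains. Recovered reads came to at least 49180894 to 62604525 per library. Library titles carry 1 of 2 prefixes whose meaning the labels do not give, 1 on the 4 BL_cisplatin libraries and CR_cisplatin library 1, 2 on the others, so that the prefix and cisplatin alone cannot be told apart in comparisons with BL_vehicle or HP_cisplatin. HP_cisplatin libraries spread from near BL_cisplatin (library 1) to near BL_vehicle (library 4) over the whole table, and the chains in that group are given without each of these libraries. In whole kidney RNA, a change in the number of cells of a type and a change in RNA per cell cannot be told apart. Testing was limited to the 15014 genes that reached 1 TPM in 4 libraries or more. Of these, 66.8% were called in BL_cisplatin against BL_vehicle at an adjusted p under 0.05 (limma, Benjamini-Hochberg adjustment), 38.0% higher and 28.8% lower, so that 56.9% of the calls were higher. That share was 68.7% when the values were rescaled without the 10 most abundant, the mitochondrial and the red cell genes, which moved the median log2 difference of all genes from 0.08 to 0.25. In HP_cisplatin against BL_cisplatin the share of calls that were higher moved from 55.5% to 30.0% in the same way.

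All 3 chains were transcribed at a high level in kidneys given cisplatin alone and at a low level in those given saline. Fga, the Aα chain, stood at 295, 229, 300 and 374 TPM in BL_cisplatin libraries 1 to 4 and at 12.3, 6.23, 7.51 and 4.25 TPM in BL_vehicle libraries 1 to 4. The means were 299.6 ± 59.2 and 7.56 ± 3.40 TPM (SD, n = 4), a ratio of 39.6. Every BL_cisplatin library thus lay far above every saline library.

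Fgg, the γ chain, was near the TPM of Fga after cisplatin alone and far below it after saline. Its levels were 283, 209, 261 and 334 TPM in the BL_cisplatin libraries and 2.13, 2.22, 1.75 and 1.33 TPM in the BL_vehicle libraries. The means were 272 ± 51.9 and 1.86 ± 0.406 TPM (SD, n = 4), a ratio of 146. Fgb, the Bβ chain, was the lowest of the 3 in every library. It was read at 35.5, 26.9, 39.9 and 37.4 TPM in BL_cisplatin, which were 3832 to 5819 reads, against 0.142, 0.154, 0.151 and 0.0705 TPM in BL_vehicle, which were 10 to 24 reads. The means were 34.9 ± 5.66 and 0.129 ± 0.0395 TPM (SD, n = 4), a ratio of 271. The lowest saline value rests on 10 reads, with an exact 95% Poisson interval of 4.80 to 18.4 that covers counting error only. No chain overlapped between these groups. Of all genes tested, 37.0% lay higher without overlap in the same comparison, which also brought the chains to attention, so nothing is read from the chains' count.

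Calorie restriction before cisplatin went with chain levels like those after saline. Fga stood at 9.94, 6.97, 6.42 and 15.96 TPM in CR_cisplatin libraries 1 to 4, with a mean of 9.82 ± 4.37 TPM (SD, n = 4). Fgb stood at 0.154, 0.0518, 0.188 and 0.199 TPM, from 7 to 31 reads, and Fgg at 1.85, 0.848, 1.47 and 1.34 TPM. Their means were 0.148 ± 0.0671 and 1.38 ± 0.414 TPM (SD, n = 4). The highest restricted library lay below the lowest BL_cisplatin library for each chain, and the means were 30.5 times (Fga), 236 times (Fgb) and 197 times (Fgg) lower. Of all genes tested, 37.3% lay lower without overlap in this comparison, which also brought the chains to attention. The restricted libraries overlapped with BL_vehicle for every chain, with ratios of restricted to saline means of 1.30 (Fga), 1.15 (Fgb) and 0.741 (Fgg). CR_cisplatin library 1, which shares the title prefix of the BL_cisplatin libraries, lay within the range of the other restricted libraries for Fga and Fgb and above them for Fgg, at 1.85 TPM, inside the saline range of 1.33 to 2.22 TPM.

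**Figure D1:**
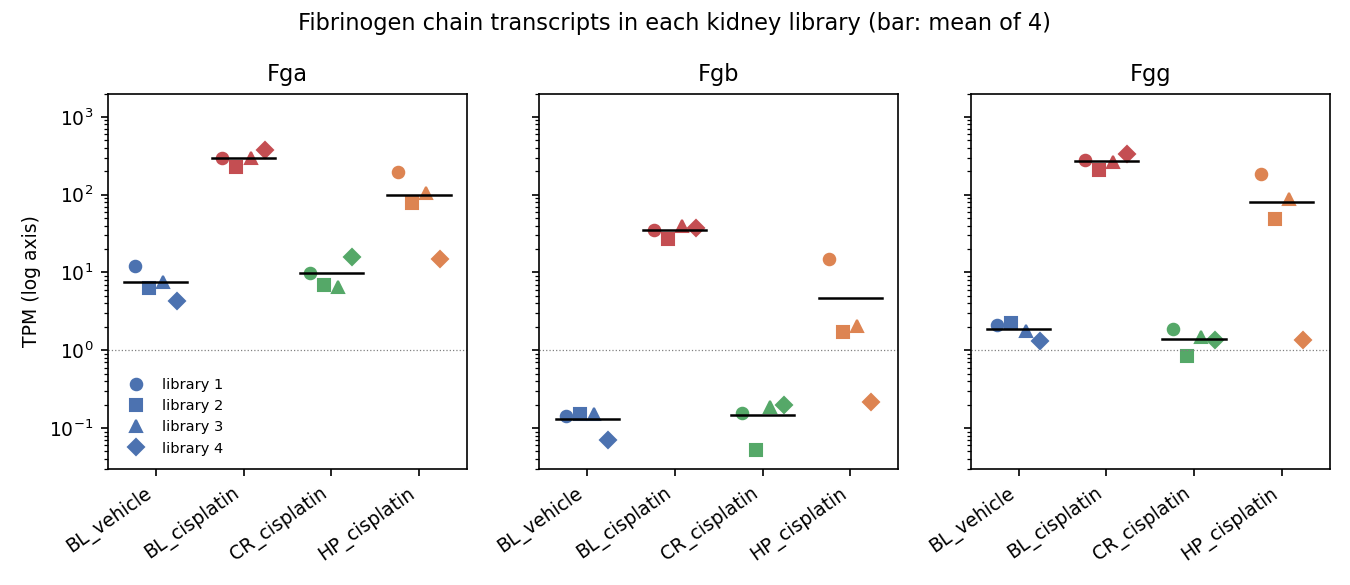
TPM of Fga, Fgb and Fgg on a log axis in the 16 libraries, by group. Symbols are libraries 1 to 4, bars are means of 4 and the dotted line marks 1 TPM. The BL_cisplatin libraries sit between 229 and 374 TPM for Fga, and the HP_cisplatin libraries spread from 14.8 to 194 TPM.

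Hypoxia before cisplatin gave libraries that differed among themselves by up to 138 times for 1 chain. Fga stood at 194, 78.9, 104 and 14.8 TPM in HP_cisplatin libraries 1 to 4. Fgb stood at 14.8, 1.71, 2.05 and 0.214 TPM, from 2219, 249, 295 and 32 reads, and Fgg at 184, 48.2, 88.5 and 1.34 TPM. Library 1 was highest and library 4 lowest for each chain, and libraries 2 and 3 lay between them. Library 4 was within the saline range for Fgg, and above it for Fga (at most 12.3 TPM) and Fgb (at most 0.154 TPM).

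Every HP_cisplatin library lay below every BL_cisplatin library for all 3 chains. The HP_cisplatin libraries took no part in bringing the chains to attention, whereas the BL_cisplatin and BL_vehicle libraries did, so the tests below are not independent of that choice. Fgb reached 1 TPM in 4 BL_cisplatin libraries, 3 HP_cisplatin libraries and 0 of the others, and so passed the filter on low values through the groups where it is high. Fga reached 1 TPM in 16 libraries and Fgg in 15. The mean levels were 98.0 ± 74.4 (Fga), 4.69 ± 6.77 (Fgb) and 80.5 ± 77.6 TPM (Fgg; SD, n = 4), which are 3.06, 7.46 and 3.38 times lower than after cisplatin alone. On the log2(TPM + 1) scale, which understates the change of low values, Fgb fell by 3.33 (SE 0.51, limma adjusted p = 0.00366), Fga fell by 2.06 (SE 0.57, limma adjusted p = 0.0191) and Fgg fell by 2.86 (SE 0.91, limma adjusted p = 0.0319). Of all genes tested, 13.1% were called lower and 16.4% higher in this comparison, and 9.07% lay lower without overlap. Without library 4 the differences were -1.33 (Fga), -2.81 (Fgb) and -1.53 (Fgg), and without library 1 they were -2.54, -4.04 and -3.63, all past the threshold. Fgg lost its call without HP_cisplatin library 2 or without any 1 of the BL_cisplatin libraries (limma adjusted p from 0.057 to 0.0675). No chain passed in a fit of only these 2 groups (limma adjusted p = 0.121, 0.113 and 0.164 for Fga, Fgb and Fgg) or with the prefix as a term (0.489, 0.464 and 0.548), and in those fits 0 of all genes passed, with 4273 and 1564 genes at an unadjusted p under 0.05.

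The same libraries were higher than saline for each chain on average. The differences in mean log2(TPM + 1) were 3.14 for Fga (SE 0.57, limma adjusted p = 0.00785), 1.65 for Fgb (SE 0.51, limma adjusted p = 0.0305) and 3.71 for Fgg (SE 0.91, limma adjusted p = 0.0156). All 4 HP_cisplatin libraries exceeded every saline library for Fga and Fgb, and 3 of 4 did for Fgg. Of all genes tested, 19.2% were called higher and 8.5% lay higher without overlap. Fgb passed the filter on low values through BL_cisplatin and HP_cisplatin, where it is high, and reached 1 TPM in 0 saline libraries. Its p-values against saline are therefore no support for a direction. Without library 4 the differences were 3.86 (Fga), 2.17 (Fgb) and 5.04 (Fgg), and without library 1 they were 2.65, 0.93 and 2.94, all past the threshold. Without library 3, Fgb and Fgg lost their calls (limma adjusted p = 0.0705 and 0.0602), as did Fgb without any 1 saline library (0.0588 to 0.0637), and in a fit of only these 2 groups no chain passed (limma adjusted p = 0.134, 0.153 and 0.134 for Fga, Fgb and Fgg).

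The proportions of the chains differed between groups as well as their sum. In BL_cisplatin, Fga made up 49.4 ± 0.925%, Fgg 44.8 ± 1.09% and Fgb 5.81 ± 0.665% of the summed TPM of the 3 chains (SD, n = 4), although the protein holds them in equal numbers. In BL_vehicle the shares were 77.9 ± 5.27%, 20.7 ± 5.02% and 1.40 ± 0.363%, and in CR_cisplatin 85.6 ± 5.28%, 13.04 ± 4.72% and 1.35 ± 0.705%. The summed level was 465 to 746 TPM in BL_cisplatin, 5.66 to 14.5 TPM in BL_vehicle and 7.87 to 17.5 TPM in CR_cisplatin. Both groups with low sums thus held a larger share of Fga than BL_cisplatin. This did not hold within those groups. The library with the highest sum had the largest share of Fga, at 84.4% in BL_vehicle and 91.2% in CR_cisplatin.

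Fgb per Fga was 0.120, 0.117, 0.133 and 0.1 in BL_cisplatin libraries 1 to 4. It was 0.0115, 0.0247, 0.0201 and 0.0166 in BL_vehicle, and 0.0155, 0.00742, 0.0293 and 0.0125 in CR_cisplatin. Fgg per Fga was 0.959, 0.912, 0.871 and 0.893 in BL_cisplatin. It was 0.174, 0.357, 0.233 and 0.314 in BL_vehicle, and 0.186, 0.122, 0.229 and 0.0841 in CR_cisplatin. For both ratios the BL_cisplatin libraries lay above all saline and restricted libraries, while saline and restricted libraries overlapped. These differences follow from the values that brought the chains to attention and were not tested.

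The ratios parted in the hypoxia libraries. Fgb per Fga was 0.0760, 0.0217, 0.0198 and 0.0145 in HP_cisplatin libraries 1 to 4, so that library 1 lay between the groups and the other 3 lay within the saline range. Fgg per Fga was 0.946, 0.611, 0.852 and 0.0905. Here library 1 lay within the BL_cisplatin range, library 3 just under it, library 2 between the groups and library 4 below every saline library. Library 3 therefore held Fgg near the proportion of cisplatin alone and Fgb at that of saline, and library 2 held Fgg between the groups with Fgb at the saline proportion. Counting error is small beside this gap: the exact 95% interval of Fgb per Fga was 0.0190 to 0.0246 in library 2 and 0.0176 to 0.0222 in library 3, against 0.0973 to 0.103 in the BL_cisplatin library with the lowest ratio. Fgg per Fgb reached 28.2 and 43.1 in libraries 2 and 3, above the 6.54 to 8.93 of BL_cisplatin and the 11.6 to 18.9 of BL_vehicle, and was 12.5 in library 1 and 6.26 in library 4.

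The difference in mean log2 Fgb per Fga between HP_cisplatin and BL_cisplatin was -2.16, with 4 of 4 hypoxia libraries below every library of cisplatin alone (exact 2-sided permutation p = 0.0286, adjusted over 3 ratios 0.0857). That p is the smallest 4 against 4 libraries allow, and after adjustment a single ratio at that p cannot reach 0.05. The difference was -0.98 for log2 Fgg per Fga (exact permutation p = 0.171, adjusted 0.171), with 3 of 4 libraries below, and 1.18 for log2 Fgg per Fgb (exact permutation p = 0.143, adjusted 0.171). Without HP_cisplatin library 4 the first difference was -1.88 and the second -0.20. The third was 0.74 without HP_cisplatin library 3 and 1.67 without library 4. With 1 added to each TPM the differences were -1.27, -0.80 and 0.47, the last with an adjusted exact permutation p of 0.657. A difference of log ratios between groups does not depend on the length assigned to a gene.

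**Figure D2:**
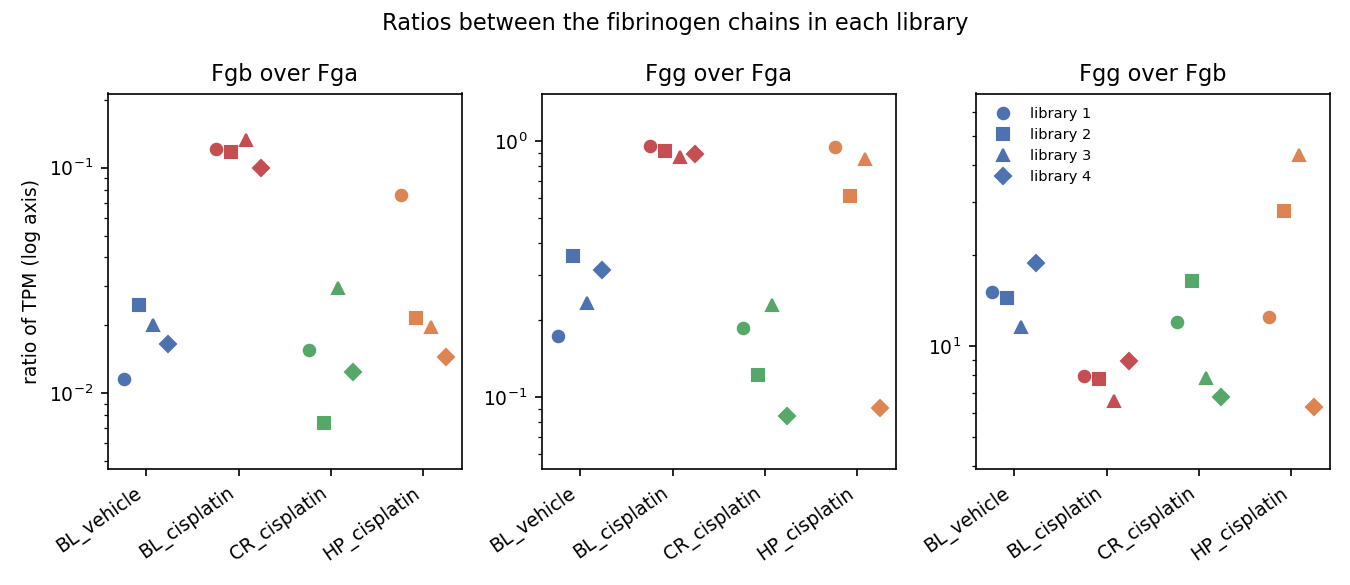
Ratios of TPM between chains in each library, on log axes that differ between panels. Symbols are libraries 1 to 4. In Fgb over Fga, HP_cisplatin libraries 2, 3 and 4 (0.0145 to 0.0217) sit with the saline and restricted libraries, whereas in Fgg over Fga libraries 1 and 3 (0.946 and 0.852) sit with or just under BL_cisplatin.

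The level of a ratio, unlike its difference between groups, rests on the exon lengths behind the TPM: 3010 bases for Fga, 3810 for Fgb and 2093 for Fgg. Only 37.9% of the Fgb length codes for protein, since its single annotated transcript ends in an exon of 2494 bases, compared with 79.0% for Fga and 64.1% for Fgg. Fga and Fgg each have 2 annotated transcripts. With reads divided by coding length instead, mean Fgb per Fga in BL_cisplatin became 0.246 in place of 0.118 and Fgg per Fga became 1.12 in place of 0.909, with Fgb still the lowest chain. Which of Fga and Fgg is the more abundant after cisplatin alone thus depends on the length used. Where the reads lie along a gene was not analysed here. A noncoding gene on the other strand, Gm30097, overlaps Fgg by 765 bases, 115 of them exonic in both. Whether reads were counted by strand is not given in the sources used here, so reads in those bases cannot be told apart.

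Each library was also placed between the means of BL_vehicle (0) and BL_cisplatin (1), on log2 TPM for each chain and, over the 15011 other tested genes together, on log2(TPM + 1). These end groups set the scale, so only the other libraries inform. HP_cisplatin libraries 1 to 4 lay at 0.957, 0.413, 0.658 and 0.0390 for the other genes. Fga lay at 0.888, 0.647, 0.720 and 0.199, Fgg at 0.924, 0.656, 0.778 and -0.0624, and Fgb at 0.849, 0.467, 0.499 and 0.0975. The chains thus kept the order in which the other genes place the 4 libraries. In library 3 Fgb was placed lower than the other genes and Fga and Fgg higher, and in library 2 Fga and Fgg were placed higher. For Fgb in library 2, 0.467 and 0.413 rest on different scales, and adding 1 to a low TPM lowers its position. Whether Fgb lay above or below the other genes there is thus not read. The restricted libraries lay between -0.154 and 0.219 for the chains and between -0.00322 and 0.0412 for the other genes. Over the 16 libraries Pearson's r of log2(TPM + 1) was 0.982 between Fga and Fgg, 0.945 between Fga and Fgb and 0.947 between Fgb and Fgg, a description in which the libraries share groups.

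**Figure D3:**
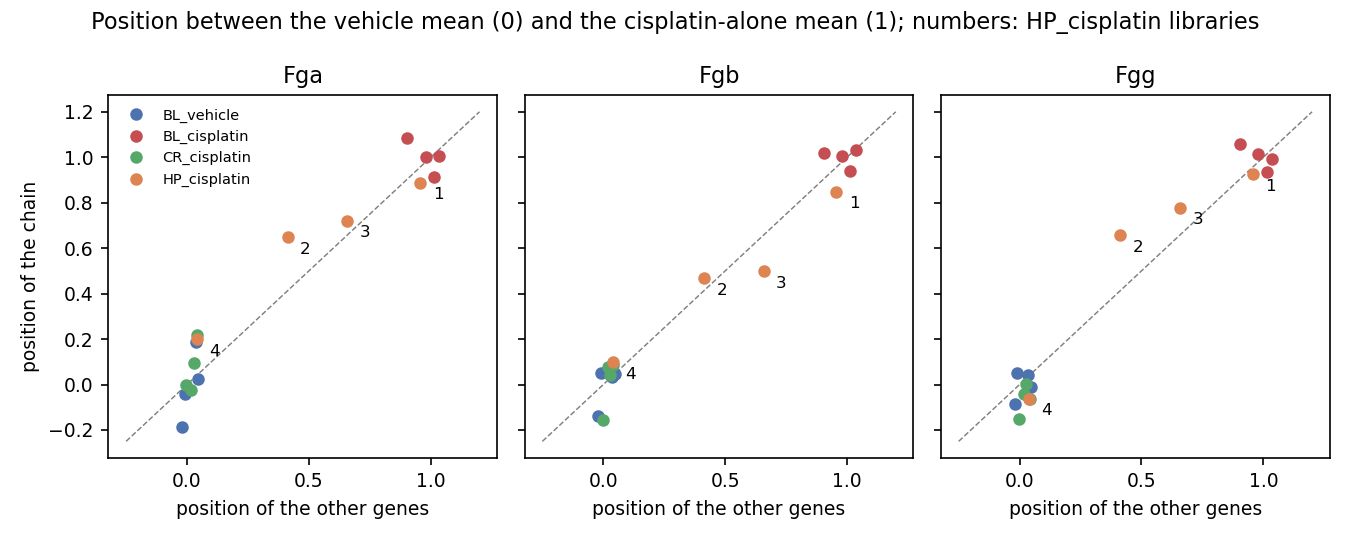
Position of each chain (vertical, log2 TPM) against that of the 15011 other tested genes (horizontal, log2(TPM + 1)) in each library, where 0 is the mean of BL_vehicle and 1 the mean of BL_cisplatin, with numbers for the HP_cisplatin libraries and a dashed line of equal position. Fgb of HP_cisplatin library 3 (0.499) lies below the line and Fgg of library 2 (0.656) above it.

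Genes that act on fibrinogen were read from lists chosen with earlier results of these data known. Their counts in HP_cisplatin against BL_cisplatin move with single libraries, given as a range over leaving out each of the 8 in turn, and are 0 in a fit of only these 2 groups or with the prefix as a term. Of all genes tested, 16.4% were called higher and 13.1% lower in HP_cisplatin against BL_cisplatin, the shares to set beside each hypoxia count below. In BL_cisplatin against BL_vehicle, 38.0% were called higher and 28.8% lower. With the prefix as a term, higher calls there went from 4 to 2 (coagulation), 6 to 2 (fibrinolysis) and 10 to 5 (receptors). They went from 10 to 7 (acute phase), 12 to 8 (interleukin-6 family) and 1 to 0 (liver factors). Lower calls went from 6 to 4 (coagulation), 2 to 1 (interleukin-6 family) and 3 to 2 (liver factors). Of 22 coagulation factors and inhibitors, 9 were under 1 TPM in every library, among them prothrombin (F2), factor X (F10) and antithrombin (Serpinc1), and 11 were tested. In BL_cisplatin against BL_vehicle 4 rose and 6 fell, with a median log2 difference of -0.32 beside 0.08 over all genes. F5, F8 and Tfpi, 3 of the 6, passed the filter on low values through BL_vehicle and CR_cisplatin, where they are higher. Procr, 1 of the 4, passed through BL_cisplatin and HP_cisplatin. Of the 6 genes that passed either way, 3 rose and 3 fell. Tissue factor (F3), which starts the cascade, rose from a mean of 5.28 to 21.9 TPM (limma adjusted p = 0.000238), and protein S (Pros1), a cofactor of the anticoagulant protein C, rose from 5.10 to 12.5 TPM. Protein C itself (Proc) fell from 83.5 to 20.4 TPM (limma adjusted p = 3.62e-05). The B subunit of factor XIII (F13b), the carrier of the enzyme that crosslinks fibrin, fell from 38.0 to 1.64 TPM (limma adjusted p = 3.92e-05) and factor V (F5) from 2.70 to 0.583 TPM. In HP_cisplatin against BL_cisplatin 5 of the 11 were higher and 4 lower, among them F13b at 13.8 TPM (limma adjusted p = 0.00669) and F3 at 12.2 TPM (limma adjusted p = 0.0309). With a library left out, 3 (without HP_cisplatin library 4 or BL_cisplatin library 1 or 2) to 6 were higher and 1 (without BL_cisplatin library 2) to 4 lower.

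Of 9 tested fibrinolysis genes, 6 rose and 1 fell in BL_cisplatin against BL_vehicle (median log2 difference 1.84, beside 0.08 over all genes). Tissue plasminogen activator (Plat) rose from 20.0 to 151 TPM (limma adjusted p = 0.000153). S100a10, a plasminogen receptor subunit, rose from 25.9 to 274 TPM, and the crosslinking enzyme Tgm2 from 60.6 to 152 TPM. The plasmin inhibitor Serpinf2 fell from 112 to 9.12 TPM. Urokinase (Plau) was abundant in both groups at 162 and 194 TPM and did not pass (limma adjusted p = 0.279). Plasminogen (Plg), the substrate of both activators, stayed under 1 TPM in every library. After hypoxia 2 of the 9 were lower than in BL_cisplatin (Plat and Tgm2) and 1 higher (Serpinf2), calls that all held on the rescaled values, where Anxa2, a plasminogen receptor subunit, and Serpinb2, under the filter on low values otherwise, were also lower. With a library left out 0 to 4 were lower, 4 without HP_cisplatin library 1 or 3 and 0 without any of the other 6.

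Of 12 tested fibrinogen receptors and related proteins, 10 rose and 0 fell after cisplatin alone, with a median log2 difference of 0.69. Itgam and Itgb3, 2 of those that rose, passed the filter on low values through BL_cisplatin and HP_cisplatin, where they are high. Of the 10 others tested, 8 rose and 0 fell. The αv integrin chain (Itgav) rose from 25.4 to 55.8 TPM, its β3 partner (Itgb3) from 0.279 to 2.999 TPM (limma adjusted p = 3.62e-05) and the adhesion receptor Icam1, which binds fibrinogen, from 7.61 to 36.2 TPM. Itgam, a chain of the fibrinogen receptor of macrophages, rose from 0.241 to 1.62 TPM. Hypoxia before cisplatin went with 5 of the 12 lower than in BL_cisplatin (Itgb3, Itga5, Cdh5, Tlr4 and Fgl2) and 0 higher, with 3 (without BL_cisplatin library 2) to 7 lower when a library was left out.

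The acute phase genes, which the liver regulates together with fibrinogen, showed 10 of 14 tested genes higher and 1 lower in BL_cisplatin than in BL_vehicle (median log2 difference 2.18). Of the 14, 9 passed the filter on low values through BL_cisplatin and HP_cisplatin, the groups where they are high, among them 7 of the 10, so that count and median are no support for a direction. Of the 5 others, 3 were higher and 1 lower. Lrg1 rose from 1.58 to 76.5 TPM (limma adjusted p = 3.57e-05), Serpina3n from 0.127 to 18.8 TPM, complement C3 from 3.15 to 95.2 TPM and ceruloplasmin (Cp) from 5.22 to 31.5 TPM. Saa1, serum amyloid A, was listed at 0 in every BL_vehicle library and averaged 24.4 TPM in BL_cisplatin. Of the 22 genes of this list in the table, 5 (Hpx, Orm2, Crp, A2m and Itih3) stayed under 1 TPM in every library. Set against BL_cisplatin, 7 of the 14 were lower in HP_cisplatin and 1 higher, complement factor B (Cfb), the same gene that was lower in BL_cisplatin than in BL_vehicle. With a library left out, 4 (without HP_cisplatin library 2 or BL_cisplatin library 3) to 7 were lower and 0 to 2 higher.

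Of 16 tested genes of interleukin-6 family signalling, 12 rose and 2 fell (the receptor chains Lifr and Il11ra1) after cisplatin alone (median log2 difference 0.88). Of the 12, 3 (Lif, Clcf1 and Il6ra) passed the filter on low values through BL_cisplatin and HP_cisplatin, the groups where they are high. Of the 13 others tested, 9 rose and 2 fell. Il6 itself was under 1 TPM in every library, with means of 0 in BL_vehicle and 0.127 TPM in BL_cisplatin. The family ligands Lif and Clcf1, named after their values were seen, rose from 0.0724 to 8.62 TPM and from 0.651 to 19.4 TPM. Osmr, a receptor chain for oncostatin M, rose from 1.34 to 5.19 TPM (limma adjusted p = 3.62e-05). Stat3 rose from 8.25 to 24.8 TPM, its feedback inhibitor Socs3 from 0.981 to 19.3 TPM and the C/EBP factor Cebpb from 7.89 to 49.4 TPM. In HP_cisplatin against BL_cisplatin 5 of the 16 were lower (Clcf1, Osmr, Pim1, Cebpb and Cebpd) and 1 was higher, the receptor chain Il11ra1. Stat3 and Socs3 did not pass, with means of 18.5 and 11.2 TPM in HP_cisplatin (limma adjusted p = 0.0762 and 0.0735), although Stat3 passed on the rescaled values. Clcf1 lost its call with a pseudocount of 0.1. The 5 lower genes became 9 without HP_cisplatin library 1, 1 without HP_cisplatin library 2 or 4 or BL_cisplatin library 2, 3 or 4, and 2 without BL_cisplatin library 1.

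Of 5 tested liver transcription factors, 3 fell and 1 rose in BL_cisplatin against BL_vehicle (median log2 difference -0.33). On the rescaled values Hnf4g lost its call, and Hnf4a and Nr3c1 still fell. Foxa1, otherwise under the filter on low values, rose there in BL_cisplatin and was lower in HP_cisplatin than in BL_cisplatin. Hnf4a, which the proximal tubule shares with the liver, fell from 188 to 46.3 TPM (limma adjusted p = 4.18e-05). In HP_cisplatin against BL_cisplatin 3 of the 5 were higher (Hnf4a, Hnf4g and Nr3c1) and 0 lower, of which Hnf4g and Nr3c1 lost their calls on the rescaled values, and 1 was higher without HP_cisplatin library 2 or BL_cisplatin library 3. In CR_cisplatin against BL_vehicle 0 genes of any of the 12 lists were called by limma, where 8 of all genes were (0.0533%).

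**Figure D4:**
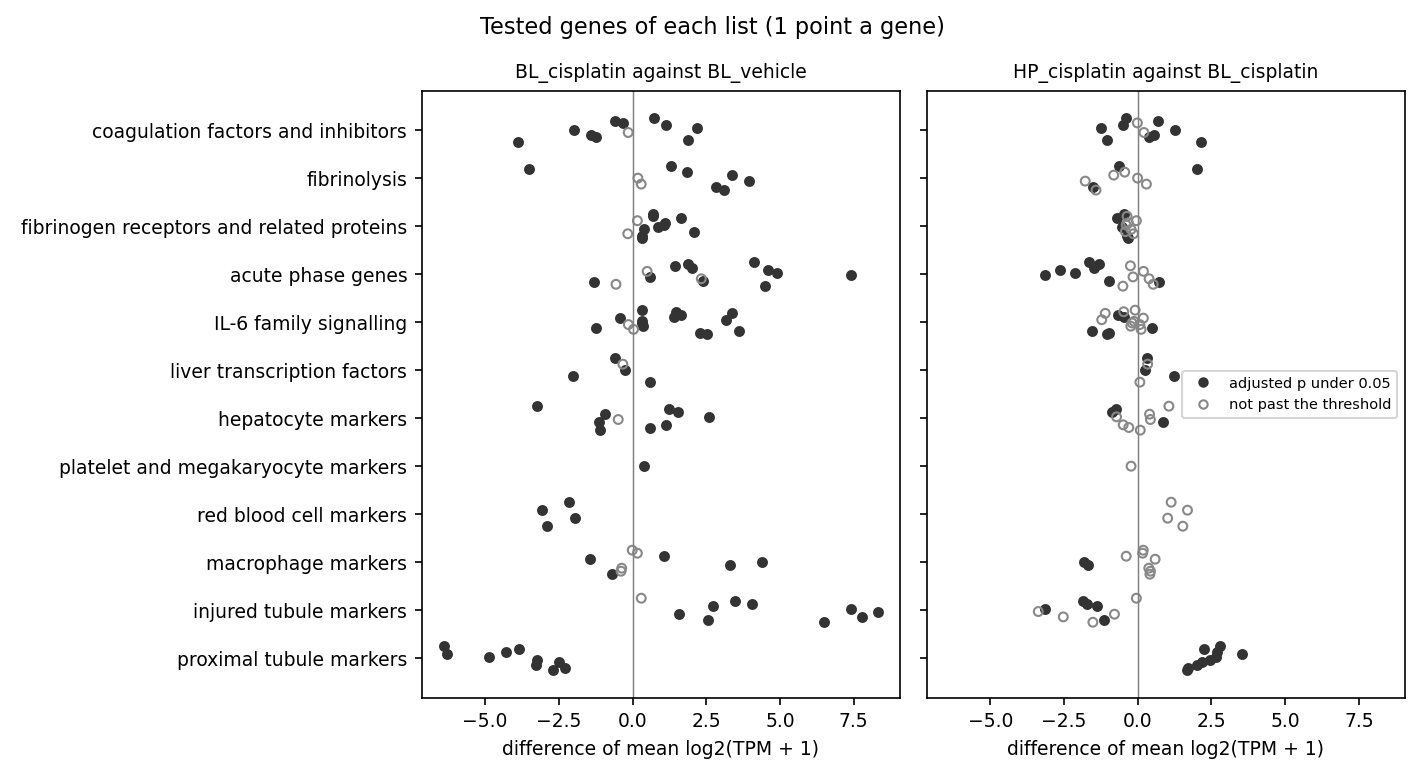
Differences of mean log2(TPM + 1) for the tested genes of each list, 1 point a gene, in BL_cisplatin against BL_vehicle (left) and HP_cisplatin against BL_cisplatin (right), filled where the limma adjusted p was under 0.05. The 10 proximal tubule markers lie at or below -2.29 on the left and at or above 1.67 on the right.

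Markers of other cells that make, carry or bind fibrinogen are given beside the chains. Of 17 hepatocyte markers in the table, 7 were under 1 TPM in every library (Ahsg, Serpinc1, Cps1, Mup3, Mup20, Cyp2c29 and Cyp3a11), and albumin (Alb), the main hepatocyte product, had means of 2.60 TPM in BL_vehicle, 0.899 in BL_cisplatin, 1.51 in CR_cisplatin and 0.835 in HP_cisplatin. The summed hepatocyte markers ranged from 143 to 185 TPM in BL_vehicle and from 116 to 164 TPM in BL_cisplatin. Of 10 tested, 5 rose with the chains (Apoc3, Serpina1a, Serpina1c, Apoa1 and Ambp) and 4 fell (Ttr, Alb, Apoa2 and Apoh). Apoa1 and Ambp passed the filter on low values through BL_cisplatin and HP_cisplatin, and Alb through BL_vehicle and CR_cisplatin. Of the 7 others tested, 3 rose and 3 fell. With the prefix as a term, 0 of the tested markers were called higher and 1 lower. The apolipoprotein Apoc3 rose from 3.70 to 27.1 TPM (limma adjusted p = 0.000194), and the antitrypsins Serpina1a and Serpina1c, near-identical copies between which reads may be split, from 17.1 to 52.6 and from 3.72 to 10.4 TPM. Transthyretin (Ttr) fell from 73.1 to 6.79 TPM (limma adjusted p = 6.44e-05). Of 10 platelet and megakaryocyte markers 8 were under 1 TPM in every library, and their sum was 1.42 to 1.54 TPM in BL_vehicle and 3.02 to 5.17 TPM in BL_cisplatin, the group with the high chains. The 5 red blood cell markers summed to 18.2 to 30.2 TPM in BL_vehicle, 0.353 to 1.22 in BL_cisplatin, 1.202 to 51.3 in CR_cisplatin and 1.21 to 38.6 in HP_cisplatin. The top of the BL_cisplatin range thus overlapped with the bottom of the CR_cisplatin and HP_cisplatin ranges. HP_cisplatin libraries 1 to 4 had 15.5, 1.21, 1.29 and 38.6 TPM, with the highest chains in library 1 and the lowest in library 4. The 10 macrophage markers summed to 41.4 to 57.3 TPM in BL_vehicle, 112 to 129 in BL_cisplatin, 36.7 to 60.1 in CR_cisplatin and 53.9 to 96.9 in HP_cisplatin. Of 9 tested macrophage markers 3 rose (Cd68, Cd14 and Itgam) and 2 fell (Adgre1 and Csf1r) in BL_cisplatin. Their median log2 difference against BL_vehicle was -0.012, beside 0.08 over all genes, although the sum was higher. The part of platelets, residual blood and macrophages in the chain levels was not tested.

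Summed markers of the injured tubule were highest, and those of the proximal tubule lowest, in BL_cisplatin, the group with the high chains. The acute phase and macrophage sums were highest in that group too. The 10 injured tubule markers summed to 232 to 445 TPM in BL_vehicle, 5702 to 7484 in BL_cisplatin, 415 to 448 in CR_cisplatin and 448 to 4700 in HP_cisplatin, with 9 of 10 tested rising in BL_cisplatin against BL_vehicle, 5 of them genes that passed the filter through BL_cisplatin and HP_cisplatin. The 10 proximal tubule markers summed to 3480 to 4198 TPM in BL_vehicle, 172 to 279 in BL_cisplatin, 3435 to 4034 in CR_cisplatin and 317 to 3456 in HP_cisplatin, with 10 of 10 falling. Among all genes tested, 38.0% were called higher and 28.8% lower in BL_cisplatin against BL_vehicle. Havcr1, which encodes the injury marker KIM-1, averaged 0.758, 383, 0.941 and 261 TPM in the order of BL_vehicle, BL_cisplatin, CR_cisplatin and HP_cisplatin. The phosphate transporter Slc34a1 averaged 1787, 22.3, 1684 and 614 TPM in that order. The part of tubule injury in the chain levels was not tested.

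The 10 named genes most like the chains, by Pearson's r of log2(TPM + 1) with the mean of the 3 chains over 16 libraries, were Nras (0.996), Fosl2 (0.996), Capn5 (0.994), Serpina3n (0.994), Smad1 (0.993), Lrg1 (0.993), Map3k14 (0.992), Dusp8 (0.992), Ets2 (0.992) and Numbl (0.992). They include a signalling GTPase (Nras), transcription factors of the AP-1, SMAD and ETS families (Fosl2, Smad1 and Ets2) and the secreted acute phase proteins Serpina3n and Lrg1. Lrg1 stood at 57.7, 15.2, 23.7 and 3.11 TPM in HP_cisplatin libraries 1 to 4, the order in which the chains place them. Its choice by r over these same libraries favours that order. Likeness of this degree was common: of 11825 genes compared, 21.3% had r above 0.9.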

How the data were processed

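Total RNA of mouse kidneys in 16 libraries, depleted of ribosomal RNA, was sequenced, and the deposited values are TPM per gene, read as such from column sums of 1000000 because the labels name no unit. The submitters' processing notes list the builds GRCm38 and mm10 and the tools Subread 1.5, featureCounts and STAR 2.5, with no settings. The chains and all gene lists were chosen with earlier results of these data known.

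The 15014 genes that reached 1 TPM in 4 libraries or more were fitted as log2(TPM + 1) with limma 3.58.1 (R 4.3.3, trended and robust variance, statmod 1.5.0) over the 16 libraries, the model holding nothing but group. Benjamini-Hochberg adjustment ran over all these genes, 2-sided, with a threshold of 0.05. The shared variance is too small for HP_cisplatin, whose libraries differ most. Chain ratios were compared by exact permutation over libraries.

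TPM are not counts, so no count model was the main test. Whole reads were recovered with GENCODE M21 exon lengths for 24725 of 32198 genes with reads (76.8%, within 0.01 reads), the chains included, and with the smallest length that gives whole reads for the other 7473, so totals are lower limits. They gave Poisson and binomial intervals at 95%, which cover counting error only, and a voom fit. Named genes are the chains, up to 4 per list by smallest adjusted p in BL_cisplatin against BL_vehicle and up to 4 by mean TPM, genes within 500 kb, and the 10 most like the chains, unnamed, predicted and sex-linked genes left out. Havcr1, Lcn2, Krt20, Slc34a1, Alb, Il6, Stat3 and Socs3 were added. Genes given as under 1 TPM, and those listed to spell out a count, were named after their values were seen. Lists were coagulation, fibrinolysis, receptors, acute phase, interleukin-6 family, liver transcription factors, and markers of hepatocytes, platelets, red blood cells, macrophages, injured tubule and proximal tubule. Some genes of the fibrinolysis and liver factor lists, and 1 promoter motif, are not reported here and were taken out of those counts. The fit and the recovery of reads were tested on simulated data.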

Additional observations from a re-analysis of the deposited data

Results flagged for a closer look

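In BL_vehicle, Fgb of library 4 stood apart from the other saline libraries, at 0.098 on the log2(TPM + 1) scale against 0.191 to 0.206 in the others. The gap was 0.86 of the group's range, above Dixon's 95% critical value for 4 samples. The value rests on 10 reads. It was 1 of 24 sets of 4 libraries checked (3 chains and 3 log2 ratios in 4 groups), and chance marks about 1 in 20.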

How the results depend on the processing

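No paired analysis was possible because the labels number no replicates. Beside the report's values, each chain and count was recomputed with a pseudocount of 0.1, no filter, a fit of just the pair of groups, a term for the prefix (it is estimated from CR_cisplatin alone, 1 library against 3), values rescaled without the 10 most abundant, the mitochondrial and the red cell genes, voom on recovered reads, and each library left out. Alternatives for the described differences, list counts and coding lengths were added after seeing the data. No result changed direction past its threshold.

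For HP_cisplatin against BL_cisplatin, the fit of only these groups gave -2.06 (Fga), -3.33 (Fgb) and -2.86 (Fgg), and the prefix term -1.93, -3.31 and -2.49, none past the threshold. Fgg also lost its call with no filter (-2.86, limma adjusted p = 0.0584) and in voom (-3.11, limma adjusted p = 0.0583), and ranged from -3.63 to -1.53 with a library left out. For HP_cisplatin against BL_vehicle, the fit of only these groups gave 3.14 (Fga), 1.65 (Fgb) and 3.71 (Fgg), none past the threshold. Fgb lost its call with no filter (1.65, limma adjusted p = 0.0606) and in voom (3.87, limma adjusted p = 0.0547). With a library left out, Fgb ranged from 0.93 to 2.17 and Fgg from 2.94 to 5.04. More genes were tested without a filter (32198) and in voom (16762); otherwise the cause was not tested.

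The described log2 differences of the low chains depend on the pseudocount. Fgb in BL_cisplatin against BL_vehicle was 4.98, and 7.26 with a pseudocount of 0.1, 6.42 on rescaled values and 8.21 in voom. Fgg was 6.57, and 7.12, 7.11 and 7.31 in the same order, and 6.20 with the prefix term. In CR_cisplatin against BL_cisplatin, Fgb was -4.96, and -7.17, -6.37 and -8.10, and Fgg was -6.84, and -7.55, -7.49, -7.77 and, with the prefix term, -6.56. Fgb in CR_cisplatin against BL_vehicle was 0.02, and 0.10 in voom.

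The count of genes called in HP_cisplatin against BL_cisplatin was 4420, 0 in the fit of only these groups and with the prefix term, and 2210 to 7156 with a library left out, with HP_cisplatin library 2 and library 1 at the ends. In HP_cisplatin against BL_vehicle it was 4398, 11 in the fit of only these groups, and 692 (without HP_cisplatin library 3) to 7709 (without library 4). With the prefix term, BL_cisplatin against BL_vehicle gave 3413 in place of 10032 and CR_cisplatin against BL_cisplatin 6327 in place of 10100. CR_cisplatin against BL_vehicle gave 8, with 15 without a filter, 80 in the fit of only these groups, and 4 to 9 with a library left out. All 3 ratio comparisons kept their direction and none passed under any alternative, a design in which 3 libraries against 4 cannot pass after adjustment. Fgb in saline and restricted kidneys rests on 7 to 31 reads, so its ratios there are imprecise. Of 1336 list counts recomputed, 235 moved by over 1.5 times.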

Other observations

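The genes tested beside the cluster moved less than the chains, 1 in the same direction and 1 in the other. Of 15 other annotated genes within 500 kb, 5 encode proteins, 6 of the 15 were at 0 in every library and 2 passed the filter on low values. Plrg1, a splicing factor whose gene starts 5.66 kb beyond Fgb, averaged 8.52 TPM in BL_vehicle, 10.1 in BL_cisplatin, 8.93 in CR_cisplatin and 9.71 in HP_cisplatin. It rose by 0.22 on the log2(TPM + 1) scale in BL_cisplatin against BL_vehicle (limma adjusted p = 0.00867), fell by 0.16 in CR_cisplatin against BL_cisplatin (limma adjusted p = 0.0437) and differed by -0.05 in HP_cisplatin against BL_cisplatin (limma adjusted p = 0.588). Its HP_cisplatin libraries 1 to 4, at 10.6, 9.41, 10.03 and 8.80 TPM, took the same order as those of the chains. Gm30097, the noncoding gene that overlaps Fgg on the other strand, averaged 1.29 TPM in BL_vehicle, 0.316 in BL_cisplatin, 1.38 in CR_cisplatin and 1.29 in HP_cisplatin, and fell by 0.80 in BL_cisplatin against BL_vehicle (limma adjusted p = 0.0115). It passed the filter on low values mainly through the groups other than BL_cisplatin, where it is higher, so that p-value is no support for a direction. Lrat, which encodes an enzyme that esterifies retinol and lies 104 kb from Fgg, was under the filter, at 0.569, 0.0252, 0.457 and 0.409 TPM in the same order. Npy2r, Rbm46 and Dchs2 stayed at or under 0.141 TPM in every library.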
